A study of Drosophila melanogaster with 12 samples.

Results

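The antimicrobial peptide genes described here are the cecropins CecA1, CecA2, CecB and CecC, Drosocin (Dro), Metchnikowin (Mtk), Defensin (Def), the diptericins DptA and DptB, and Attacin C (AttC). They were picked by their FlyBase symbols, 10 genes of 17730 in the count table, a rule that itself uses no measured value although earlier results of these data were known. To ask how wild type and mutant TET2 change gene expression in the fly head, RNA-seq was performed on pooled heads of 1-day-old flies of both sexes, with 3 libraries in each of 4 groups and 12 libraries in all. Flies of the first 3 groups expressed mouse TET2 under the dTet-Gal4 driver, as the wild type protein (mTET2-wt), with the R43G substitution (mTET2-R43G) or with the R1261C substitution in the catalytic domain (mTET2-R1261C). Control flies carried the same driver and no transgene (dTet-Gal4>w1118). Gal4 is a yeast activator that was made where the fly dTet gene is expressed and that turned on the transgene through its UAS sites, so that the transgene depended on the activity of the dTet promoter region. All transgenes sat at 1 landing site on chromosome arm 2R, 1 insertion per protein form. Since control flies carried no insertion, the transgene and the inserted chromosome cannot be told apart. By the position that the study's methods give, the Bomanin genes BomS1, BomS2 and BomS3 lie close to this site and DptA and DptB lie farther along the same stretch of the arm, so for these genes an effect of the nearby insertion cannot be told apart from that of the protein either. The other antimicrobial peptide genes on 2R lie farther away, and the cecropins are on 3R.

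Antimicrobial peptides are short secreted proteins that kill bacteria and fungi. In flies the Imd and Toll pathways turn their genes on, above all in the fat body, and also in haemocytes and in barrier epithelia. Peptidoglycan of Gram-negative bacteria is sensed by receptors such as PGRP-LC, the adaptor imd relays the signal, and the NF-kappaB factor Relish (Rel) activates most of the genes described here, while Dif and dorsal (dl) act downstream of Toll.

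The libraries held from 15894383 to 19434046 counted read pairs. Levels are given as CPM, read pairs per 1000000 counted after TMM scaling. Of the 10 genes, 9 reached a summed count of 10 over the 12 libraries and were tested. Neuron, photoreceptor and glia genes marked every library as head tissue: the 7 head tissue markers summed to between 14030 and 19140 CPM, none was at 0, and none was called in any comparison. A gene was called when its Benjamini-Hochberg adjusted p over 12433 genes was at most 0.05 in edgeR's quasi-likelihood test and its absolute log2 fold change was at least 1.

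The 9 tested genes had higher fitted levels in each mTET2 group than in control, by a median log2 fold change of 2.96 in mTET2-wt heads, 3.5 in mTET2-R43G heads and 2.68 in mTET2-R1261C heads, against medians of -0.003, -0.01 and -0.005 over all genes tested. The spread between libraries differed by group. Summed over the 9 genes, the highest library exceeded the lowest 1.62-fold in mTET2-wt, 4.28-fold in control, 11.8-fold in mTET2-R43G and 16.9-fold in mTET2-R1261C. This order did not hold for every gene. CecC, at few counts, spread 17.9-fold in control, 15.2-fold in mTET2-R43G and 5.58-fold in mTET2-R1261C. The only gene called against control in mTET2-wt and in mTET2-R43G was DptB. In mTET2-R1261C none was called. DptA, DptB and AttC were called when the mean of the 3 mTET2 groups was compared with control. Of all genes tested, 1.2, 1.34, 0.748 and 1.34% were called in these comparisons, in the order given. These calls are from 1 fit, which estimates the spread of each gene over all 4 groups together. A fit of only the mTET2-wt and control libraries called 4 genes, DptA, DptB, Dro and AttC, against 1.17% of all genes. Such a fit called 0 for mTET2-R43G and 0 for mTET2-R1261C, against 0.748 and 0.587% of all genes. The plot of CPM by library shows all values.

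**Figure D1:**
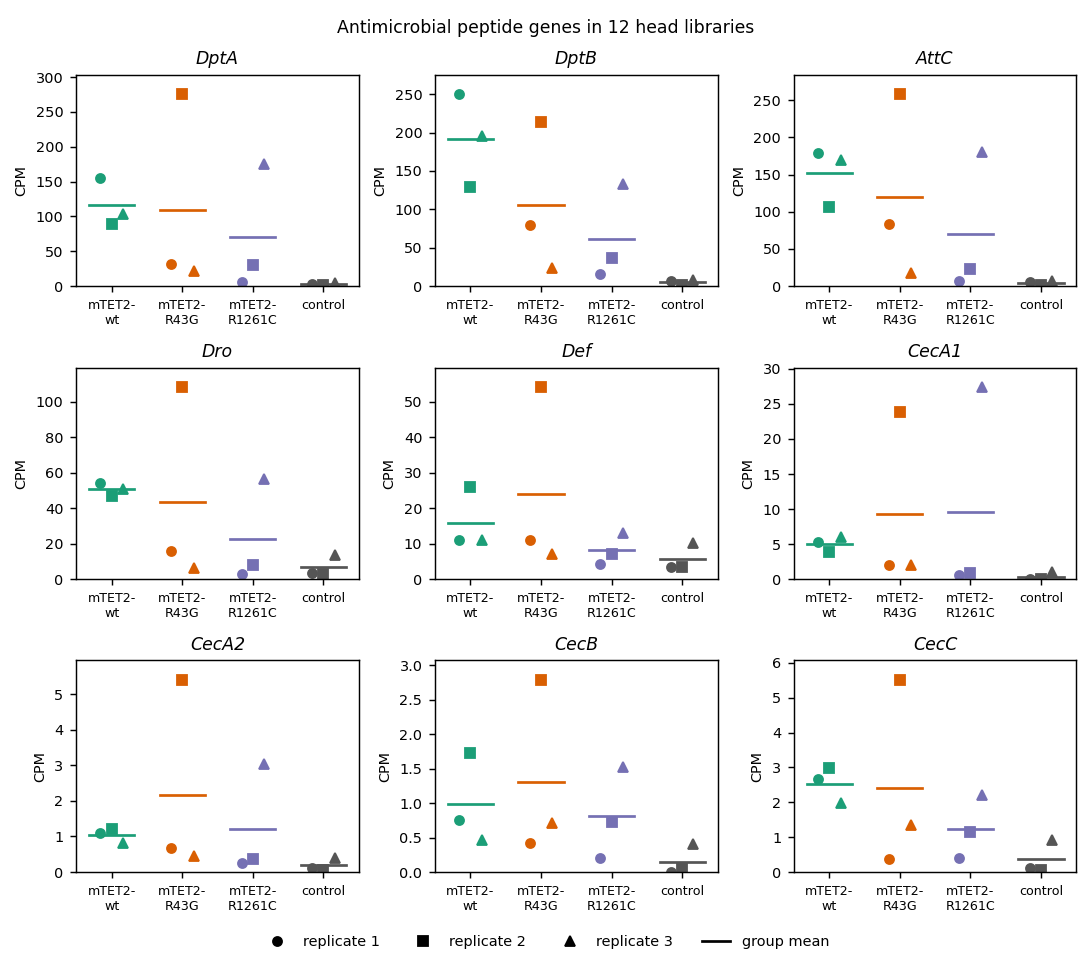
CPM of the 9 tested antimicrobial peptide genes in each library (points, shaped by replicate), with the group mean as a line, for mTET2-wt, mTET2-R43G, mTET2-R1261C and control. Each panel has its own linear axis from 0. In mTET2-R43G replicate 2 and in mTET2-R1261C replicate 3 all 9 genes are at the highest level of their group.

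DptA (FBgn0004240, 2R:18865765-18866260, plus strand, dm6) and DptB (FBgn0034407, 2R:18867391-18867895, plus strand) are neighbouring genes for diptericins, glycine-rich peptides active against Gram-negative bacteria. DptB had 250.0, 129.5 and 195.6 CPM in the mTET2-wt libraries, 80.1, 214.0 and 23.1 CPM in the mTET2-R43G libraries, 15.2, 35.9 and 133.0 CPM in mTET2-R1261C, and 6.15, 1.13 and 8.07 CPM in control. All 9 mTET2 libraries lay above all 3 control libraries. The group means were 191.7 ± 60.4 CPM in mTET2-wt, 105.7 ± 98.0 CPM in the mTET2-R43G libraries, 61.4 ± 62.9 CPM in mTET2-R1261C and 5.12 ± 3.58 CPM in control (SD, n = 3 each). DptB rose relative to control by a log2 fold change of 5.24 ± 1.02 in mTET2-wt (SE, adjusted p = 0.0216, edgeR) and of 4.39 ± 0.99 in mTET2-R43G (adjusted p = 0.0331). In mTET2-R1261C its log2 fold change of 3.6 ± 0.97 missed the threshold (adjusted p = 0.109). DptB overlaps CG43109 on the opposite strand, which the stranded counting kept apart.

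DptA had 155.5, 89.3 and 103.7 CPM in mTET2-wt, 31.3, 275.6 and 21.5 CPM in the mTET2-R43G libraries, 5.44, 30.3 and 175.4 CPM in mTET2-R1261C, and 2.60, 1.65 and 4.96 CPM in control. Again no mTET2 library fell within the control range, but the lowest mTET2-R1261C library was just above the highest control. Its log2 fold changes relative to control were 5.25 ± 1.32 in mTET2-wt (SE, adjusted p = 0.0702), 5.17 ± 1.32 in mTET2-R43G heads (adjusted p = 0.0503) and 4.53 ± 1.30 in mTET2-R1261C (adjusted p = 0.139, edgeR). The fitted differences of DptA from control were thus at least as large as those of DptB, with larger errors.

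AttC (FBgn0041579, 2R:13393705-13394667, plus strand) encodes an attacin, a larger glycine-rich peptide also directed at Gram-negative bacteria, and overlaps CG4744 on the opposite strand. It had 178.3, 106.4 and 169.7 CPM in mTET2-wt, 83.5, 258.1 and 18.0 CPM in the mTET2-R43G libraries, 6.23, 22.7 and 180.9 CPM in mTET2-R1261C, and 4.85, 1.55 and 6.283 CPM in control. The mTET2-wt and mTET2-R43G libraries were all above control, and mTET2-R1261C replicate 1 fell just within the control range. The log2 fold changes were 5.18 ± 1.26 (adjusted p = 0.0601), 4.84 ± 1.25 (adjusted p = 0.0519) and 4.07 ± 1.22 (adjusted p = 0.164, edgeR) in the mTET2-wt, mTET2-R43G and mTET2-R1261C heads.

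Dro (FBgn0010388, 2R:14745961-14746714, plus strand) encodes drosocin, a proline-rich peptide active against Gram-negative bacteria. Its levels were 54.2, 46.9 and 50.7 CPM in mTET2-wt, 15.6, 108.3 and 6.48 CPM in the mTET2-R43G libraries, 2.62, 8.12 and 56.6 CPM in mTET2-R1261C, and 3.49, 2.68 and 13.4 CPM in control. In mTET2-wt the 3 libraries differed by 1.16-fold at most, the smallest range of any tested gene in any group, and all lay above control. In the other mTET2 groups the libraries spread over 16.7-fold and 21.6-fold and overlapped control. The log2 fold changes of 2.96 ± 1.16 in mTET2-wt, 2.75 ± 1.16 in mTET2-R43G heads and 1.80 ± 1.14 in mTET2-R1261C did not pass the test (SE, adjusted p = 0.247, 0.181 and 0.609, edgeR).

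Def (FBgn0010385, 2R:10054178-10054576, minus strand, within an intron of magu on the opposite strand) encodes defensin, a cysteine-rich peptide active mainly against Gram-positive bacteria. It had 11, 25.9 and 10.9 CPM in mTET2-wt, 11, 54.3 and 7.06 CPM in the mTET2-R43G libraries, 4.20, 7.16 and 13 CPM in mTET2-R1261C, and 3.43, 3.503 and 10.3 CPM in control. Def had the smallest fold changes of the 9 genes in every comparison with control, with log2 values of 1.48 ± 0.75 in mTET2-wt, 2.08 ± 0.76 in mTET2-R43G heads and 0.52 ± 0.77 in mTET2-R1261C (SE, adjusted p = 0.404, 0.131 and 0.874, edgeR). The 95% interval of the mTET2-R1261C difference ran from -1.16 to 2.20, so a change in either direction was not detectable at this precision.

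The 4 cecropin genes lie together on 3R, CecA1 (FBgn0000276, 3R:30210874-30211273), CecA2 (FBgn0000277, 3R:30212156-30212568) and CecC (FBgn0000279, 3R:30216484-30216938) on the plus strand and CecB (FBgn0000278, 3R:30213315-30213797) on the minus strand. They encode short helical peptides that disrupt bacterial membranes. Because the copies are closely similar and read pairs that mapped to several places were dropped, the split of counts among them is uncertain. CecA1 had 5.22, 3.91 and 6.02 CPM in mTET2-wt, 1.94, 23.9 and 1.94 CPM in the mTET2-R43G libraries, 0.525, 0.842 and 27.4 CPM in mTET2-R1261C, and 0.0591, 0 and 0.980 CPM in control. In raw counts its control libraries held 1, 0 and 17 read pairs, and 2 mTET2-R1261C libraries lay within that range once scaled. Its log2 fold changes of 3.87 ± 1.76 in mTET2-wt, 4.76 ± 1.73 in mTET2-R43G heads and 4.82 ± 1.73 in mTET2-R1261C carried the largest errors of the 9 genes (SE, adjusted p = 0.336, 0.131 and 0.265, edgeR).

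CecC, with 2.67, 2.97 and 1.97 CPM in mTET2-wt, 0.363, 5.51 and 1.36 CPM in the mTET2-R43G libraries, 0.394, 1.14 and 2.20 CPM in mTET2-R1261C, and 0.118, 0.0515 and 0.922 CPM in control, was separated from control only in mTET2-wt. CecA2 stayed below 1.2 CPM in all libraries but mTET2-R43G replicate 2 (5.40 CPM) and mTET2-R1261C replicate 3 (3.03 CPM), and its control libraries held 2, 1 and 7 read pairs. CecB reached 1.72 CPM in mTET2-wt replicate 2, 2.78 CPM in mTET2-R43G replicate 2 and 1.52 CPM in mTET2-R1261C replicate 3, and its control libraries held 0, 1 and 7 read pairs. All mTET2-wt and mTET2-R43G libraries of CecA2 (0.830 to 1.199 and 0.454 to 5.40 CPM) lay above its control libraries (0.0515 to 0.404 CPM). So did those of CecB (0.467 to 1.72 and 0.423 to 2.78 CPM, against 0 to 0.404 CPM). In mTET2-R1261C both overlapped control. None of the 3 passed the edgeR test in any comparison, with log2 fold changes relative to control between 1.80 and 3.5. At these counts the cecropins could not be measured precisely in control heads.

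Mtk (FBgn0014865, 2R:15408846-15409113, plus strand), the gene for the antifungal peptide metchnikowin, had 0 counts in all 12 libraries. It lies wholly inside an intron of Stacl on the same strand, and a read pair that overlapped both genes was assigned to neither. The 0 therefore came from the counting and gives no level for Mtk.

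Per kilobase of gene, the order of the levels in mTET2-wt was DptB (379.7 ± 119.5 CPM per kb), DptA (234.3 ± 70.2), AttC (157.3 ± 40.8), Dro (67.1 ± 4.9), Def (39.9 ± 21.7), CecA1 (12.6 ± 2.66), CecC (5.58 ± 1.13), CecA2 (2.53 ± 0.46) and CecB (2.03 ± 1.36; SD, n = 3). Within 1 SD, DptB overlapped DptA, DptA overlapped AttC, and CecA2 overlapped CecB. In mTET2-R43G the order began with DptA (220.6 ± 290.3 CPM per kb), DptB (209.4 ± 194.1), AttC (124.5 ± 128.9) and Def (60.5 ± 65.7), and in mTET2-R1261C with DptA (141.9 ± 185.1), DptB (121.5 ± 124.6), AttC (72.6 ± 100.1) and Dro (29.8 ± 39.4), where SDs close to or above the means let each of these overlap the next. In control the order was different: Def was first with 14.4 ± 9.83 CPM per kb, followed by DptB (10.1 ± 7.09), Dro (8.64 ± 7.90), DptA (6.19 ± 3.43) and AttC (4.39 ± 2.52), and each of these overlapped the next within 1 SD.

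Relative to control, 1 of the 9 tested genes was called in mTET2-wt, where 1.2% of all genes were called, and 1 in mTET2-R43G, where 1.34% were. In mTET2-R1261C 0 were called, against 0.748% of all genes. At an unadjusted p under 0.05 the counts were 7, 9 and 5 of 9, against 7.75%, 11.3% and 5.93% of all genes higher than control at that level. The libraries did not overlap control for 9 of the genes in mTET2-wt, 6 in mTET2-R43G heads and 2 in mTET2-R1261C, against 11.7%, 12.9% and 6.87% of all genes. The 3 comparisons share the control libraries and are not independent of each other. In the mean of the mTET2 groups, 8 of 9 genes had an unadjusted p under 0.05 (8.55% of all genes) and 2, DptA and DptB, did not overlap control (2.35%). In this comparison DptA (log2 fold change 4.98 ± 1.25, adjusted p = 0.0484), DptB (4.41 ± 0.93, adjusted p = 0.0234) and AttC (4.69 ± 1.17, adjusted p = 0.0484) were called by edgeR, 3 of 9 genes against 1.34% of all genes. All fold changes relative to control were positive, and the plot of differences shows their intervals.

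DESeq2 called more of the genes than edgeR: 3 in mTET2-wt, 6 in mTET2-R43G, 3 in mTET2-R1261C and 6 in the mean of the mTET2 groups, against 2.03%, 2.12%, 1.35% and 1.9% of all genes. DptA, DptB and AttC were called by it in all 4, and CecA2, CecB and CecC in the comparisons with 6. The edgeR calls rested on few libraries. Without any 1 of the 3 control libraries, 0 of the 9 genes were called in any comparison with control, against 0.442 to 1.09% of all genes. The median log2 fold change without control replicate 3 was 4.84 in mTET2-wt, 4.89 in mTET2-R43G heads and 4.11 in mTET2-R1261C. In the same order it was 2.67, 3.27 and 2.455 without control replicate 1, and 2.58, 3.03 and 2.22 without control replicate 2. The median in mTET2-R43G fell to 1.87 without mTET2-R43G replicate 2, and was 3.92 and 3.97 without replicate 1 or 3. In mTET2-R1261C it fell to 1.10 without mTET2-R1261C replicate 3, and was 3.14 and 3.11 without replicate 1 or 2. Without single mTET2-wt libraries the mTET2-wt median stayed between 2.91 and 3.01. The DptB call in mTET2-wt was also lost without mTET2-wt replicate 1, and the DptB call in mTET2-R43G without mTET2-R43G replicate 2. In the mean of the mTET2 groups only DptB was called without any single mTET2-wt library.

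**Figure D2:**
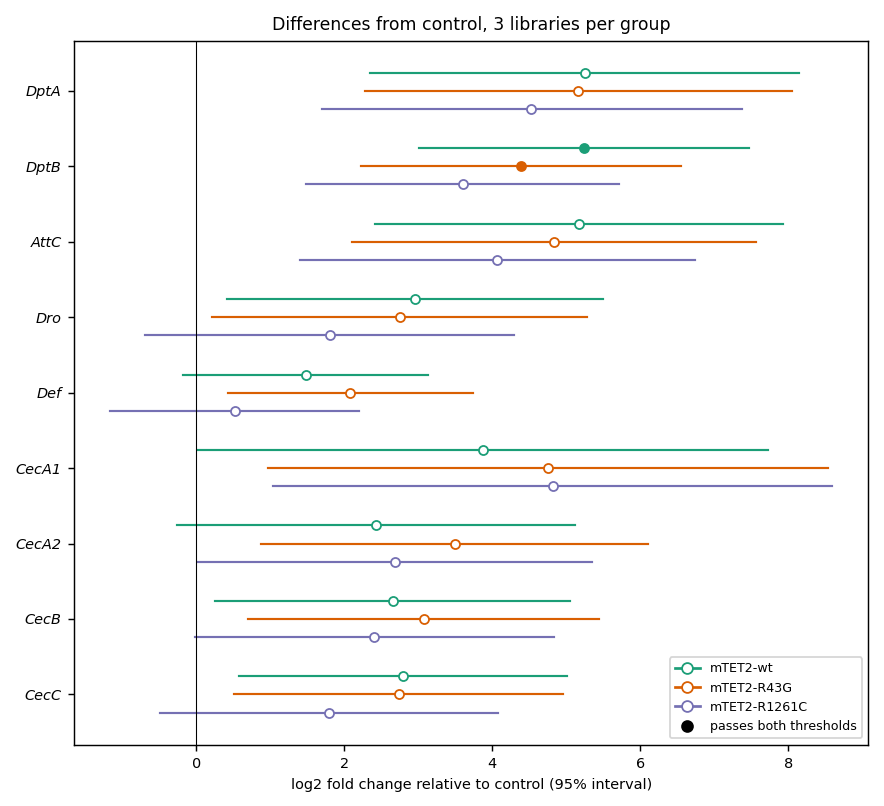
Log2 fold change relative to control of the 9 tested antimicrobial peptide genes in the mTET2-wt, mTET2-R43G and mTET2-R1261C heads (points) with 95% intervals (lines), from edgeR with 3 libraries per group. Filled points passed both thresholds, which only DptB did, in mTET2-wt (5.24) and mTET2-R43G (4.39).

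The genes moved together from library to library. In mTET2-R43G all 9 were highest in replicate 2, in mTET2-R1261C all 9 were highest in replicate 3 and lowest in replicate 1, and in control all 9 were highest in replicate 3. The same libraries were the highest of their group for 33%, 35.4% and 35.9% of all genes. In mTET2-wt the highest values were divided over the replicates, with 4, 4 and 1 genes. Over the 36 pairs of genes the median Pearson r of log2 CPM was 0.895 across 12 libraries, and 0.845 after group means were removed. These r values describe genes measured in the same libraries, and CecA1 and CecA2 also share sequence.

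Summed over the 9 genes, the level was 658.9, 407.8 and 539.9 CPM in mTET2-wt, 224.9, 948 and 80.6 CPM in the mTET2-R43G libraries, 35, 107.2 and 593 CPM in mTET2-R1261C, and 20.8, 10.7 and 45.7 CPM in control. The highest library exceeded the lowest 1.62-fold in mTET2-wt, 11.8-fold in mTET2-R43G, 16.9-fold in mTET2-R1261C and 4.28-fold in control. In mTET2-wt most of the mean sum of 535.5 CPM came from DptA, DptB and AttC (means 116.2, 191.7 and 151.5 CPM). The lowest mTET2-R1261C library, replicate 1, was below the highest control library. Counted gene by gene, 9 of 9 genes exceeded all control libraries in each mTET2-wt library, 8, 9 and 7 did in mTET2-R43G, and 2, 5 and 9 did in mTET2-R1261C, against between 25.4% and 31.6% of all genes in these libraries.

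The within-group SD of log2 CPM lay between 1.04 (Def) and 2.01 (CecA1), against a median of 0.144 over 9511 genes with a mean of at least 1 CPM. Each of the 9 genes varied more within groups than 98.3% or more of those genes. The comparison was not matched for level. CecA2 and CecB held at most 7 read pairs in a control library, where counting alone widens the log2 spread. The plot of deviations from the group mean shows the shared direction.

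**Figure D3:**
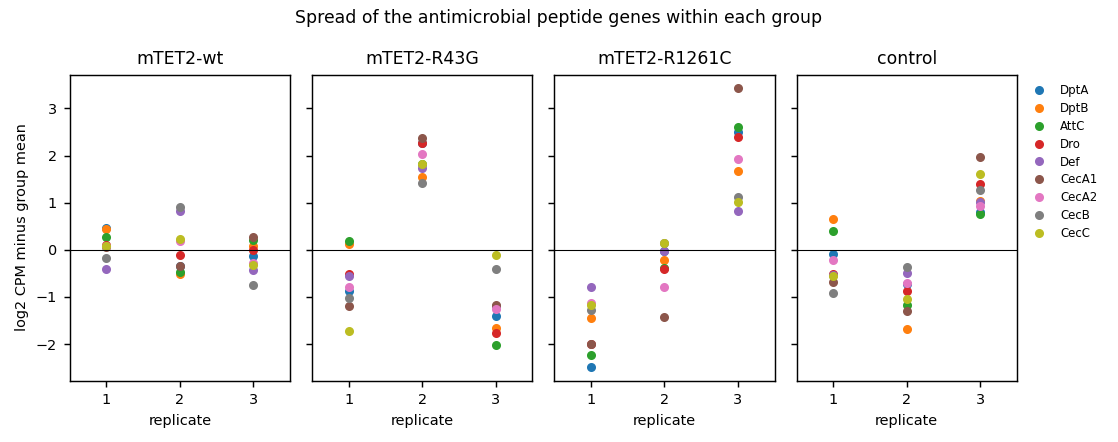
Log2 CPM minus the group mean of the 9 tested antimicrobial peptide genes (coloured points) by replicate number, in mTET2-wt, mTET2-R43G, mTET2-R1261C and control. In mTET2-R43G replicate 2, mTET2-R1261C replicate 3 and control replicate 3 all 9 points lie above 0, and the mTET2-wt points stay closest to 0.

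Between the mTET2 groups, 0 of 9 genes were called by edgeR in any of the 3 comparisons, and 0 had an unadjusted p under 0.05. DESeq2 also called none, but not all 9 genes had an adjusted p from it. With mTET2-wt as reference 8 genes did, and in mTET2-R1261C against mTET2-R43G only 4 did. Of all genes, edgeR called 0.0804% in mTET2-R43G against mTET2-wt, 0.145% in mTET2-R1261C against mTET2-wt and 0.0724% in mTET2-R1261C against mTET2-R43G, DESeq2 called 0.266%, 0.413% and 0.0368%, and 9.86%, 6.63% and 13% had an edgeR p under 0.05. The intervals were wide. For DptB the log2 difference was -0.86 (95% interval -2.65 to 0.94) in mTET2-R43G relative to mTET2-wt and -1.64 (-3.47 to 0.20) in mTET2-R1261C relative to mTET2-wt. For Def it was -1.56 (-3.18 to 0.05) in mTET2-R1261C relative to mTET2-R43G. Differences of several fold in either direction were therefore not detectable for most of the genes. Their medians were -0.06, -0.96 and -0.78 in these comparisons, against -0.01, -0.002 and 0.003 over all genes.

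The genes of the pathways upstream were next examined. Of 14 listed activators of the Imd pathway 12 were tested, and 0 were called in any comparison with control. Their median log2 fold changes were -0.06 in mTET2-wt, -0.08 in mTET2-R43G heads and 0.01 in mTET2-R1261C. The receptor gene PGRP-LC had 56.4 ± 1.7 CPM in mTET2-wt, 56.8 ± 4.4 in mTET2-R43G, 53.9 ± 3.4 in mTET2-R1261C and 52.8 ± 2.2 CPM in control. The adaptor gene imd had 13.4 ± 0.6, 12.2 ± 0.4, 14.1 ± 1.0 and 13.1 ± 0.9 CPM in the same order of groups (SD, n = 3). Rel had 0 counts in all libraries because it lies inside Nmdmc on the same strand, so the transcription factor of the pathway gave no level here, and Fadd had 0 counts likewise, inside pit.

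Of 12 listed negative regulators of the Imd pathway 10 were tested and 0 were called, with medians of 0.25, 0.20 and 0.19 in the mTET2-wt, mTET2-R43G and mTET2-R1261C heads. PGRP-SC2, which encodes a secreted amidase that degrades peptidoglycan, stood apart with 2.15, 2.03 and 10.5 CPM in mTET2-wt, 1.63, 24.9 and 0.583 CPM in the mTET2-R43G libraries, 0.262, 1.14 and 6.275 CPM in mTET2-R1261C, and 0.177, 0 and 0.0577 CPM in control. All 9 mTET2 libraries were above control, and the log2 fold changes of 5.90 ± 1.98, 6.79 ± 1.93 and 5.0 ± 2.07 did not pass the test (SE, adjusted p = 0.171, 0.0701 and 0.353, edgeR). PGRP-LB, for an amidase that dampens the pathway, differed from control in mTET2-R43G by a log2 fold change of 0.94 ± 0.20 (adjusted p = 0.0287, edgeR), under the fold threshold. The same was true of dnr1, for an inhibitor of the caspase Dredd, in mTET2-R43G (0.47 ± 0.086, adjusted p = 0.0140) and in the mean of the mTET2 groups (0.31 ± 0.071, adjusted p = 0.0312, edgeR). Of 17 listed Toll pathway genes 16 were tested and 0 were called. With an adjusted p under 0.05 but under the fold threshold, PGRP-SA, a receptor for peptidoglycan upstream of Toll, was higher than control in mTET2-wt (log2 fold change 0.77 ± 0.14, adjusted p = 0.0168) and in the mean of the mTET2 groups (0.60 ± 0.12, adjusted p = 0.0188, edgeR). The receptor gene Tl was likewise higher in mTET2-R43G (0.25 ± 0.055, adjusted p = 0.0328, edgeR). The Toll factor Dif had 157.6 ± 6.1 CPM in mTET2-wt, 156.2 ± 7.6 in mTET2-R43G, 161.0 ± 10.9 in mTET2-R1261C and 144.2 ± 5.6 CPM in control, and dl had 114.8 ± 5.5, 110.9 ± 4.1, 101.7 ± 1.8 and 102.5 ± 4.3 CPM in that order (SD, n = 3). At an unadjusted p under 0.05 dl differed from control in mTET2-wt (log2 fold change 0.16, adjusted p = 0.218) and Dif in mTET2-R1261C (0.16, adjusted p = 0.360, edgeR).

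Among 13 tested genes of other humoral effectors, 5 were called higher in mTET2-wt, 2 in mTET2-R43G, 0 in mTET2-R1261C and 3 in the mean of the mTET2 groups, and none was called lower. Of all genes tested, 1.2, 1.34, 0.748 and 1.34% were called in either direction in these comparisons. Their median log2 fold changes were 2.22, 1.5 and 1.19 in the 3 groups. BomS1, a Bomanin gene under the Toll pathway, had 219.0, 204.1 and 268.3 CPM in mTET2-wt, 238.8, 150.0 and 63.6 CPM in the mTET2-R43G libraries, 47.5, 106.9 and 113.1 CPM in mTET2-R1261C, and 33.8, 25.5 and 52.7 CPM in control. It rose in mTET2-wt by 2.63 and in mTET2-R43G by 2.02 on the log2 scale. BaraA1, which encodes an antifungal Baramicin precursor, rose by 2.56 ± 0.42 (adjusted p = 0.00886) in mTET2-wt and 1.78 ± 0.42 (adjusted p = 0.0381, edgeR) in mTET2-R43G.

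PGRP-SB1, for a secreted amidase, rose in mTET2-wt by 2.45 ± 0.47 (adjusted p = 0.0208, edgeR), and BomS3 was called in the same comparison with 150.7 ± 8.5 CPM in mTET2-wt and 64.7 ± 14.6 CPM in control (SD, n = 3). Drsl5, a relative of Drosomycin, was lower than control in mTET2-wt (log2 fold change -0.99 ± 0.15, adjusted p = 0.00633), in mTET2-R43G (-0.75 ± 0.15, adjusted p = 0.0223) and in the mean of the mTET2 groups (-0.67 ± 0.12, adjusted p = 0.00886, edgeR), each under the fold threshold. Listericin had log2 fold changes of -0.84, -0.26 and -0.40 in the mTET2-wt, mTET2-R43G and mTET2-R1261C heads and did not pass the test (adjusted p = 0.328, 0.721 and 0.782, edgeR). In mTET2-R43G BomS1, BomS3 and BaraA1 were highest in replicate 1, whereas PGRP-SB1, Drs, AttA and AttB were highest in replicate 2, as were the 9 antimicrobial peptide genes. BaraA1 in that group had 32.9, 15.5 and 9.40 CPM, and BomS3 155.5, 86.8 and 85.6 CPM. Without control replicate 2, 0 of the 13 effectors were called in any comparison with control, and in mTET2-R43G the count was also 0 without mTET2-R43G replicate 1, mTET2-R43G replicate 2 or control replicate 3. Over all genes 0.442 to 1.11% were called in these fits. The plot of gene lists shows these genes beside the pathway genes.

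**Figure D4:**
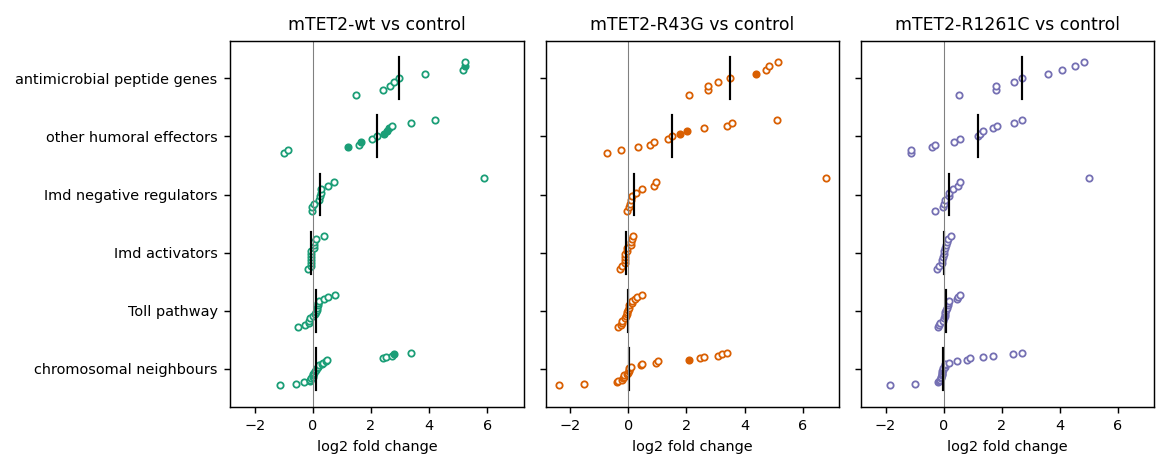
Log2 fold change relative to control in the mTET2-wt, mTET2-R43G and mTET2-R1261C heads for the 9 antimicrobial peptide genes, 13 other humoral effectors, 10 Imd negative regulators, 12 Imd activators, 16 Toll pathway genes and 24 chromosomal neighbours. Each point is a gene, filled where called, and black bars are list medians; all 9 antimicrobial peptide genes lie to the right of 0, the Imd activators cluster around it, and the point far to the right among the negative regulators is PGRP-SC2.

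Of the 24 nearest tested neighbours of the antimicrobial peptide genes, 2 on each side of each gene or cluster, 1 was called, FBgn0283462, a gene with no symbol in the reference that starts 12344 bases after AttC. It rose in mTET2-wt (log2 fold change 2.78 ± 0.49, adjusted p = 0.0130) and in mTET2-R43G (2.08 ± 0.49, adjusted p = 0.0387, edgeR). It was not called without control replicate 1 or control replicate 2, nor in mTET2-R43G without control replicate 3, mTET2-R43G replicate 1 or mTET2-R43G replicate 2. The neighbours had medians of 0.12, 0.02 and -0.03 in the mTET2-wt, mTET2-R43G and mTET2-R1261C heads. The attacin genes AttA and AttB, next to Dro, are near-identical copies whose counts are uncertain, and neither was called, with log2 fold changes in mTET2-wt of 2.72 ± 1.01 and 3.37 ± 1.09 (SE, adjusted p = 0.224 and 0.159, edgeR).

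Outside the 9 genes, the profiles over the 12 libraries most like their mean profile were those of AttB (Pearson r 0.956), Hayan (0.926), PGRP-SC2 (0.914), Mtkl (0.910) and AttA (0.901). These values are descriptive and include the differences between groups. Hayan encodes a serine protease that acts in Toll activation and melanisation, and its levels ranged over less than those of the others, with 24.8, 30.0 and 27.8 CPM in mTET2-wt, 26.1, 34.4 and 18.7 CPM in the mTET2-R43G libraries, 22.9, 22.5 and 33.5 CPM in mTET2-R1261C, and 16, 14.2 and 19.8 CPM in control. Its highest mTET2-R43G and mTET2-R1261C libraries were also replicate 2 and replicate 3, which its choice by similar profile favours.

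Genes of tissues that make antimicrobial peptides were summed in the same libraries. In heads sampled in bulk, more cells of a type and more RNA per cell cannot be told apart. The 10 fat body markers, none at 0, summed to 24860 to 26220 CPM in mTET2-wt heads, 14360 to 22730 CPM in the mTET2-R43G libraries, 18160 to 35460 CPM in mTET2-R1261C and 15570 to 26850 CPM in control, and 0 of 10 were called. Most of that sum came from apolpp, for the main lipoprotein of the haemolymph, which alone averaged 22240 ± 821 CPM in mTET2-wt heads, 15630 ± 3513 CPM in the mTET2-R43G libraries, 24430 ± 7794 CPM in mTET2-R1261C and 17670 ± 5988 CPM in control (SD, n = 3). Taken gene by gene, the median log2 fold changes of the 10 markers were 0.51, 0.76 and 0.87 in the mTET2-wt, mTET2-R43G and mTET2-R1261C heads. Lpin, for an enzyme of fat synthesis, was higher than control in the same order by 0.41, 0.42 and 0.38 on the log2 scale (adjusted p = 0.0240, 0.0186 and 0.0455, edgeR), under the fold threshold. Lsp2, on the same list, went the other way with log2 fold changes of -2.08, -2.79 and -1.56 (adjusted p = 0.434, 0.176 and 0.669, edgeR). Its control libraries spread widely, with 94.2, 6.18 and 526.9 CPM. The fat body sum was the lowest of its group in mTET2-R43G replicate 2 (14360 CPM) and mTET2-R1261C replicate 3 (18160 CPM), the libraries with the highest antimicrobial peptide sums, and the highest of its group in control replicate 3 (26850 CPM). In mTET2-wt the fat body sum (26220 CPM) and the antimicrobial peptide sum (658.9 CPM) were both highest in replicate 1.

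The 10 haemocyte markers, none at 0, summed to between 318 and 563 CPM in all libraries. Like the fat body sum, their sum was the lowest of its group in mTET2-R43G replicate 2 (317.8 CPM) and mTET2-R1261C replicate 3 (340.9 CPM). The single marker called was PPO1, a prophenoloxidase gene of crystal cells, which fell in mTET2-R43G by 3.10 on the log2 scale (adjusted p = 0.0318, edgeR) and in the mean of the mTET2 groups by 2.11 (adjusted p = 0.0283). The 17 midgut markers, none at 0, summed to 2358 CPM in mTET2-wt replicate 3 and to between 253 and 710 CPM elsewhere, and 0 of 17 were called although their median log2 fold change in mTET2-wt was 3.78. In that library the antimicrobial peptide sum of 539.9 CPM lay between those of the other mTET2-wt libraries, and DptB was called also without it. The midgut sum too was the lowest of its group in mTET2-R43G replicate 2 (270.3 CPM) and mTET2-R1261C replicate 3 (298.2 CPM). The sum of 5 sex markers, yolk protein and dosage compensation genes, was highest in control replicate 3 with 46610 CPM, against 10390 to 26440 CPM in the other libraries. The part of these differences in the antimicrobial peptide levels was not tested.

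**Figure D5:**
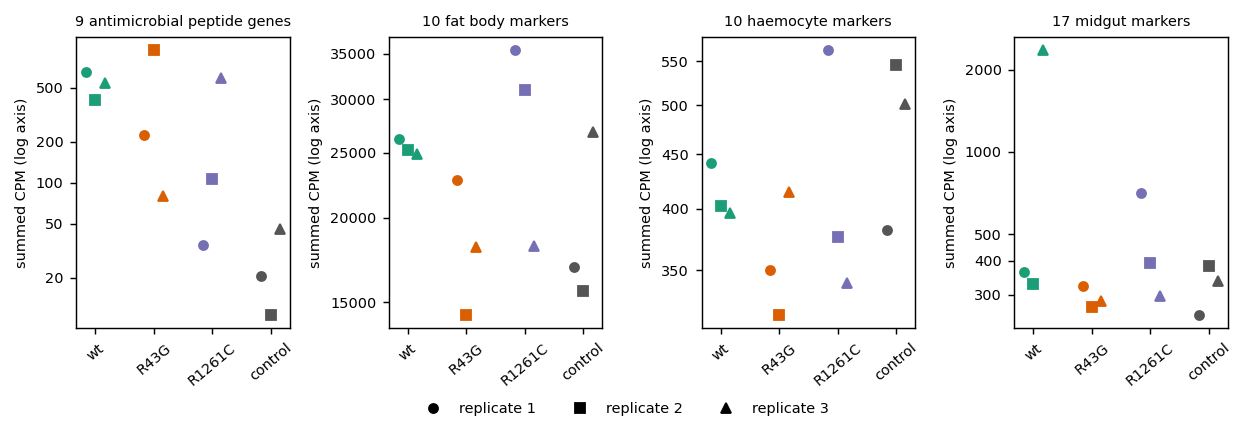
Summed CPM per library, on log axes, of the 9 tested antimicrobial peptide genes, 10 fat body markers, 10 haemocyte markers and 17 midgut markers, for mTET2-wt, mTET2-R43G, mTET2-R1261C and control (abbreviated on the axis as wt, R43G, R1261C and control). The highest antimicrobial peptide sums in mTET2-R43G (948 CPM) and mTET2-R1261C (593 CPM) coincide with the lowest fat body, haemocyte and midgut sums of those groups. Most of the fat body sum is apolpp. In mTET2-wt the highest antimicrobial peptide and fat body sums are both in replicate 1.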

How the data were processed

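The authors aligned paired-end reads of ribosomal RNA-depleted, stranded libraries with HISAT2 2.1.0 to the FlyBase genome dmel_r6.28 (dm6) and deposited raw counts per gene. Per the file headers, featureCounts 1.6.0 counted read pairs over whole gene bodies on the reverse strand, without pairs aligned at several loci or shared between genes; the submitters' processing notes list featureCounts 2.0.1. Genes with a summed count under 10 were left out, which left 12433 of 17730. Counts were scaled with TMM (factors 0.959 to 1.05) and fitted in R 4.3.3 with edgeR 4.0.16 in 1 quasi-likelihood model over 12 libraries. P-values were adjusted over all genes with the Benjamini-Hochberg method. The script was tested on simulated data. Alternatives were DESeq2 1.42.0, its size factors (RLE), no filter, filterByExpr, the replicate number as a block, only the libraries compared, no minimum fold change and leaving out each library. No libraries were duplicates by a chi-square test of counts. Deviations of same-numbered libraries correlated with r of 0.17, 0.15 and 0.29 between mTET2-wt and mTET2-R43G, over 0.1 in all 3 pairs. In no other pair of groups did all 3 exceed 0.1. The 3 r are not independent, since deviations are taken from the group mean. The replicate number was therefore treated only as a possible pairing of these 2 groups, which the main fit does not include. P-values measure the spread between 3 replicate pools per group, estimated for each gene over all 4 groups together. In the main fit a p-value for 2 groups therefore also depends on the spread within the other groups.

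Named besides the antimicrobial peptide genes are called genes of the lists (at most 4 per list) and called neighbours. PGRP-LC, imd, Rel, Dif, dl and the 5 genes with the most similar profiles are named too. PGRP-LB, dnr1, PGRP-SA, Tl, Drsl5, Listericin, Drs, Lpin, Lsp2, apolpp, Fadd and the genes that overlap others were added after their values were seen. The genes and lists were chosen with earlier results of these data known. Symbols were matched for 17633 gene identifiers.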

Additional observations from a re-analysis of the deposited data

How the results depend on the processing

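The number of antimicrobial peptide genes called relative to control depended on the fit. In mTET2-wt, where edgeR called 1, DESeq2 called 3, no filter on low counts gave 2 and a fit of only the libraries compared gave 4. These settings called 1.2, 2.03, 1.04 and 1.17% of all genes. In mTET2-R43G, where edgeR called 1, DESeq2 gave 6, RLE size factors 2, no filter 3, filterByExpr 3, and only the libraries compared 0. The shares of all genes were 1.34, 2.12, 1.41, 1.17, 1.68 and 0.748% in that order. In mTET2-R1261C DESeq2 called 3 against 0, and in the mean of the mTET2 groups 6 against 3. Over all genes DESeq2 called 1.35 and 1.9% there, and edgeR 0.748 and 1.34%. DESeq2 gave no adjusted p for CecA1 in any comparison, and in mTET2-R1261C relative to mTET2-R43G only 4 genes had an adjusted p. Leaving out 1 library gave 0 to 1 genes in mTET2-wt, 0 to 3 in mTET2-R43G, 0 to 0 in mTET2-R1261C and 0 to 3 in the mean of the mTET2 groups, where 1 was called without any single mTET2-wt library. In these fits 0.571 to 0.925, 0.651 to 1.23, 0.442 to 0.909 and 0.764 to 1.5% of all genes were called. Leaving out mTET2-R43G replicate 2 and mTET2-R1261C replicate 3 together, chosen after seeing the data, gave 3 in the mean of the mTET2 groups, with log2 fold changes of 3.64 (DptA), 3.64 (DptB) and 3.52 (AttC). That fit called 1.17% of all genes. Other humoral effectors called by DESeq2 were 7 in mTET2-wt, 4 in mTET2-R43G, 1 in mTET2-R1261C and 6 in the mean, against 5, 2, 0 and 3 by edgeR, and leaving out 1 library gave 0 to 5, 0 to 3, 0 to 0 and 0 to 5. The shares of all genes in these fits are those given above. Leaving out libraries changes both the number of pools and the estimated spread, and some of these fits called more genes. A lost or gained call therefore need not mean a changed difference.

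The r of deviations between same-numbered libraries was -0.38 to 0.29 and over 0.1 in 4 of 18 pairs, among them all 3 of mTET2-wt with mTET2-R43G and none of an mTET2 group with control. With the replicate number as a block, 0 antimicrobial peptide genes were called in mTET2-R43G relative to mTET2-wt, as without it, against 0.121% of all genes. The block gave all groups a common effect per replicate number, so a pairing of mTET2-wt with mTET2-R43G alone was not fitted. Relative to control, where no r was over 0.1, the block gave 1 gene in mTET2-wt, 0 in mTET2-R43G, 0 in mTET2-R1261C and 0 in the mean of the mTET2 groups, and 5, 0, 0 and 2 of the other humoral effectors. It called 1.02, 0.82, 0.547 and 1.09% of all genes in these comparisons. The block also turned the log2 difference of CecA1 to -0.050 in mTET2-R1261C relative to mTET2-wt and to -0.75 relative to mTET2-R43G, and that of CecA2 to -0.0060 in mTET2-R1261C relative to mTET2-wt.

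Leaving out mTET2-R1261C replicate 3 turned the direction relative to control of Dro (range without 1 library -0.26 to 2.88) and Def (-0.0046 to 1.24). Between mTET2 groups, where no gene was called in any setting, leaving out 1 library turned more directions. The ranges in mTET2-R43G relative to mTET2-wt were -1.38 to 1.36 for CecA1, -0.89 to 1.54 for CecA2, -0.79 to 1.12 for CecB, -1.56 to 0.45 for CecC, -2.19 to 0.30 for Dro, -0.82 to 1.16 for Def, -2.14 to 0.40 for DptA and -1.58 to 0.18 for AttC. In mTET2-R1261C relative to mTET2-wt they were -2.86 to 1.49 for CecA1, -1.71 to 0.71 for CecA2 and -1.07 to 0.45 for CecB. In mTET2-R1261C relative to mTET2-R43G they were -3.74 to 2.32 for CecA1, -2.78 to 1.14 for CecA2, -1.49 to 0.54 for CecB, -1.64 to 0.56 for CecC, -3.01 to 1.03 for Dro, -2.61 to 1.42 for DptA, -2.05 to 0.25 for DptB and -3.05 to 0.47 for AttC. The cause was not tested. Of 862 values of single genes under an alternative, 775 kept their direction and their side of the thresholds, 25 newly passed, 30 were lost and 32 turned. The 862 include the setting with no minimum fold change, which reuses the main fit and cannot turn a direction. They also include the comparisons between mTET2 groups, where no call could be lost. The 775 are therefore no measure of how stable the calls were. Counts of at most 17 read pairs per control library limited the cecropins.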
